A study of Mus musculus with 24 samples.

Results

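The mouse genes Irg1, Nos2, Arg1, Arg2, Ass1, Hdc, Odc1 and Gch1 encode enzymes that make itaconate, nitric oxide, the amines histamine and putrescine, or the substrate and cofactor these reactions need. They were taken by the gene names printed in the scanner files, where Irg1 is the older name of Acod1. The 8 names had 12 of the 41174 probes on the array. A gene was tested if, in 1 group or more, all 3 arrays put its probe well above background. Of the 8, 7 met this filter, as did 15096 gene names in all, and Arg1 did not. The cells were RAW264.7, an established mouse macrophage-like line. One line carried a construct that overexpresses Tbc1d23, a protein with a TBC domain, and the comparison line carried one for chloramphenicol acetyltransferase (CAT), a bacterial enzyme used as a control. Cells of both lines were grown in DMEM with fetal bovine serum and G418 at 400 ug/ml. RNA was taken from cells left without lipopolysaccharide (LPS, 0 h) or kept in LPS at 20 ng/ml for 1, 3 or 5 h, which gave 8 groups of 3 one-colour arrays. There was 1 line per construct, so a difference between constructs and a difference between 2 lines for any other reason cannot be told apart. The design text calls the replicates biological but the labels do not say that they were separate cultures, so the spread behind the p-values is that between these arrays and may be technical.

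LPS-activated macrophages change how they use citrate and arginine. Irg1 encodes the enzyme that turns cis-aconitate, an intermediate of the tricarboxylic acid cycle, into itaconate, a metabolite that limits succinate oxidation and bacterial growth. Nos2, the inducible nitric oxide synthase, makes nitric oxide from arginine. Ass1, argininosuccinate synthase, starts the path that returns citrulline to arginine, and Gch1, GTP cyclohydrolase, catalyses the rate-limiting step of tetrahydrobiopterin synthesis, the cofactor that Nos2 needs. Arg1 (cytosolic) and Arg2 (mitochondrial) are arginases, which split arginine into urea and ornithine. Odc1, ornithine decarboxylase, turns ornithine into putrescine, the first polyamine. Hdc, histidine decarboxylase, makes histamine.

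The probe sequences below show what each array spot measured, 5' to 3', as the scanner files print them with positions on the mm9 build. Each is 60 bases long. In the Ass1 probe the capitals mark the 20 bases that it shares with the other Ass1 probe, so that the 2 are not independent measurements. Whether a probe lies in a coding or an untranslated exon was not analysed here.
Nos2, chr11:78773160-78773219: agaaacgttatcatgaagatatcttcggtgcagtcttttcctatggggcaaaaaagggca
Arg1, chr10:24636194-24636253: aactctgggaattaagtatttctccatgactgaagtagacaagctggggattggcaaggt
Arg2, chr12:80252972-80253031: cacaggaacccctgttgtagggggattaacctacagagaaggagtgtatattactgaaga
Ass1, chr2:31374279-31375918: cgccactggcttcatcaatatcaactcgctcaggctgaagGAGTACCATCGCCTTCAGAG
Hdc, chr2:126419516-126419575: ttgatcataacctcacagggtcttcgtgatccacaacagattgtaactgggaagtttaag
Gch1, chr14:47788897-47788956: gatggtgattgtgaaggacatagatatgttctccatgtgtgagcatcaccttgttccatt

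Promoter windows of 300 bases, 250 before to 50 after the start, were taken from RefSeq (GRCm38.p6) for 5 of the 8 genes (Irg1 as Acod1, Ass1, Hdc, Odc1 and Gch1), and those of Nos2, Arg1 and Arg2 were not used here. The 150 bases before the start are shown for the 3 of these genes that were called higher after 5 h of LPS in both lines, on the gene's strand, with motif matches in capitals.
Irg1 (Acod1), chr14:103046862-103047011, plus strand: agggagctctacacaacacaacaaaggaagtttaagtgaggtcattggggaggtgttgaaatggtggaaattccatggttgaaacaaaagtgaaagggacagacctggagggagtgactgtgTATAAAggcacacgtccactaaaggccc
Hdc, chr2:126618679-126618828, minus strand: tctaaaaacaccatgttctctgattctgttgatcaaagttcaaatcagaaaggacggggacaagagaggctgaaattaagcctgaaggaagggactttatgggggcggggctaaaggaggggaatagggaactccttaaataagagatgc
Gch1, chr14:47189414-47189563, minus strand: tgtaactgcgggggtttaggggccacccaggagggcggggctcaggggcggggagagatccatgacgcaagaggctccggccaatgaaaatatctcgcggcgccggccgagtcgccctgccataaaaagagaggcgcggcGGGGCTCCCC

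Both strands of the 300-base windows were searched for 7 motifs. TATAAA stood at -28 to -23 in the Irg1 window and, on the opposite strand, at -188 to -183 in the Gch1 window, and was held by 13.6% of the 32851 promoters in the table. The NF-kB consensus was found at -10 to -1 of Gch1 and in 8.46% of all promoters. CACGTG, the E-box, stood at -36 to -31 of Ass1 and in 7.15% of all promoters. No match to the interferon-stimulated response element (3.44% of all promoters), TTCNNNGAA (GAS, 8.3%), TGANTCA (AP-1, 7.81%) or TGACGTCA (CRE, 1.79%) was found in the 5 windows, and the Hdc and Odc1 windows held none of the 7 motifs. These letters describe the windows and were not tested against the expression values.

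Levels are given as the log2 processed signal of a probe minus the 75th percentile of all probes on that array, so 0 is the array's 75th percentile and 1 unit is a doubling. The 75th percentile signal was 173 to 363 in the Tbc1d23 line and 157 to 277 in the CAT line. Probes well above background made up 42.2% to 69.7% of all probes in the Tbc1d23 line and 48.8% to 54.3% in the CAT line, and both extremes of the first range were 0 h arrays. Of the 10 macrophage markers listed, 9 were well above background in all 8 groups, and Mertk did not pass the filter. The endogenous Tbc1d23 probe that stood for the gene differed between the lines by 0.04 ± 0.10 (SE, averaged over the 4 times, adjusted p = 0.745 in limma), and its second probe that passed was higher by 0.50 ± 0.09 (adjusted p = 5.02e-05 over all probes), so the transcript was called higher at 1 of 2 probes, and the labels do not say which bases of Tbc1d23 the construct holds. The 24 arrays lay on 6 slides, each with the 4 times of 1 line and 1 replicate number. Arrays of 1 slide correlated within their groups (0.57). A line difference averaged over the 4 times, as for Tbc1d23, therefore rests on 6 slides rather than 24 independent arrays, and its SE and p are too small. By their serial numbers the slides fell into 2 runs, with replicates 1 and 2 of the Tbc1d23 line in the first and all other slides in the second. Quantile normalization moved the median line difference of all genes at 0 h to -0.07, against 0.09, and the split of calls to 3263 higher and 4151 lower, against 3790 and 3044. Median scaling moved that median to -0.46, with 861 higher and 3857 lower.

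Before LPS, 5 of the 7 tested enzymes were higher in the Tbc1d23 line than in the CAT line, 1 was lower and 1 did not pass the test. This count was the least stable: median scaling left 2 higher and 1 lower, normexp background correction left 3 called, and Nos2 was below background in both lines. The normexp setting also adds a constant of 50 to every signal, which by itself shrinks the log2 differences of dim probes. At 3 h and at 5 h 6 were lower in the Tbc1d23 line and none was higher. Calls are limma tests with Benjamini-Hochberg adjusted p under 0.05 over all 15096 gene names. At 0 h, 25.1% of all genes were called higher and 20.2% lower, so many genes differed between the lines before any treatment. At 1 h 2 members were higher (24.6% of all genes) and 4 lower (21.2%). At 3 h 0 of 7 were higher (27.4% of all genes) and 6 lower (23.7%), and at 5 h 0 of 7 were higher (30% of all genes) and 6 lower (23.5%). The members' median line difference was 1.30 at 0 h, -1.20 at 1 h, -1.64 at 3 h and -2.34 at 5 h, against 0.09, 0.06, 0.05 and 0.10 over all genes. Averaged over the 4 times all 7 were called, as were 70.7% of all genes, in a fit that takes the arrays of a slide as independent. Nos2 and Ass1 passed the filter through CAT groups alone, Nos2 through 5 h only, so their lower levels in the Tbc1d23 line at those times are a description, given without a p. Among the 5 others, 4 were higher and 0 lower at 0 h, 2 were higher and 3 lower at 1 h, and at both later times 4 were lower and 0 higher. Their median line difference was 1.33 at 0 h, -1.20 at 1 h, -1.64 at 3 h and -2.08 at 5 h.

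**Figure D1:**
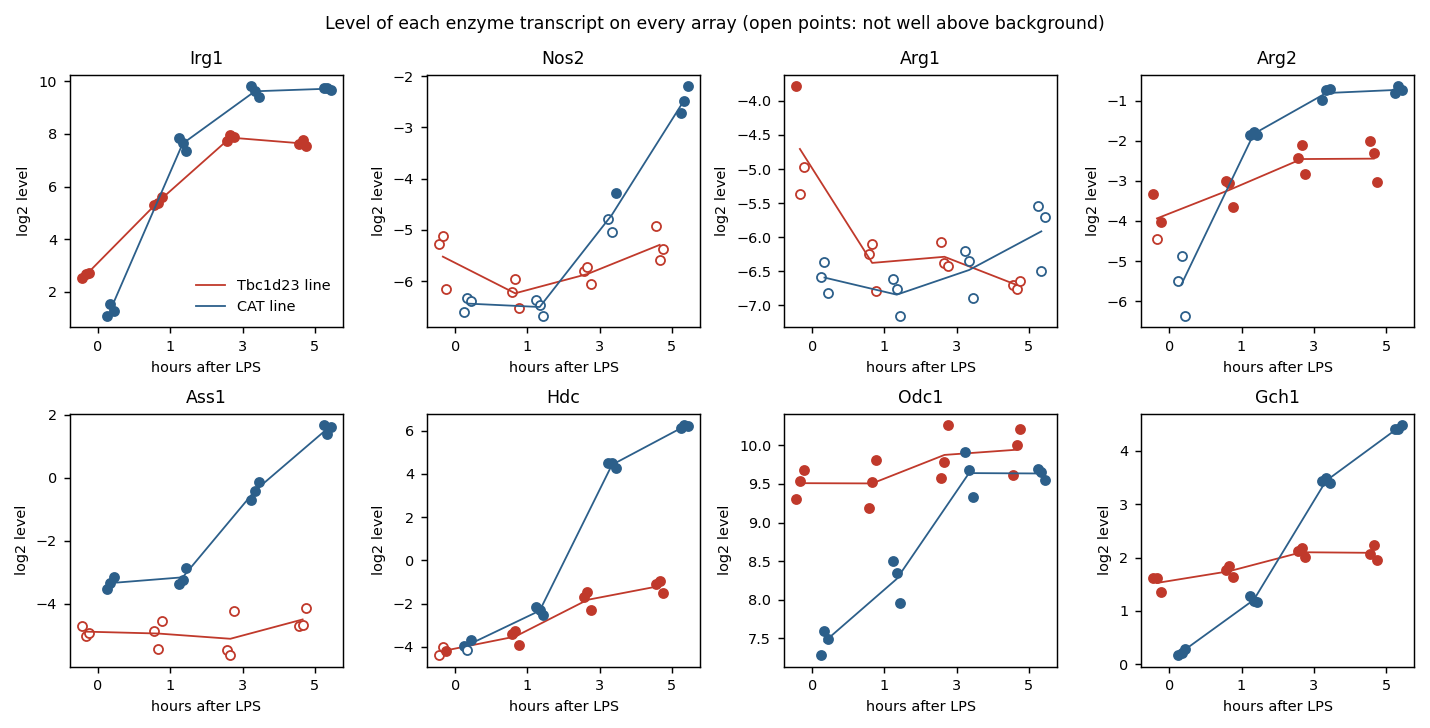
Log2 level (array 75th percentile at 0) of each enzyme transcript on every array against hours after LPS, with the Tbc1d23 line in red left of the CAT line in blue. Lines join group means and open points were not well above background. The CAT line ends above its 0 h arrays in the 7 panels other than Arg1, and the Tbc1d23 line does so for Irg1, Hdc, Arg2 and Gch1.

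Irg1, the itaconate enzyme, was induced in both lines, less so in the Tbc1d23 line, from a higher starting level. In the Tbc1d23 line its 3 arrays read 2.53, 2.66 and 2.72 at 0 h, 5.29, 5.38 and 5.59 at 1 h, 7.73, 7.98 and 7.88 at 3 h, and 7.63, 7.75 and 7.53 at 5 h. In the CAT line they read 1.09, 1.55 and 1.28 at 0 h, 7.86, 7.67 and 7.36 at 1 h, 9.82, 9.65 and 9.39 at 3 h, and 9.73, 9.73 and 9.68 at 5 h. The Tbc1d23 arrays lay above all CAT arrays at 0 h and below all of them at every later time. The line difference was 1.33 ± 0.14 (SE, 3 against 3 arrays) at 0 h, with limma adjusted p = 4.09e-07, and -2.08 ± 0.14 at 5 h, with limma adjusted p = 5.35e-10. These are 2.51-fold higher and 4.23-fold lower levels in the Tbc1d23 line. In order of level, the Tbc1d23 line at 3 h and 5 h overlapped each other, and the 5 h group also overlapped the CAT line at 1 h. At this probe 5 h of LPS in the Tbc1d23 line gave a level within the spread of 1 h in the CAT line. At the other Irg1 probe these groups overlapped but the first reached higher, at 6.97 to 7.90 against 6.78 to 7.32. No further step was called after 3 h: the 5 h over 3 h difference was -0.22 ± 0.14 in the Tbc1d23 line and 0.10 ± 0.14 in the CAT line. The higher level at 0 h did not pass under median scaling, where it was 0.78.

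Nos2, the nitric oxide synthase, was measured well above background only late in the CAT line. In the Tbc1d23 line no array was well above background at any time. Its levels there were -4.92, -5.58 and -5.38 at 5 h and -5.28, -5.13 and -6.16 at 0 h, which overlap. In the CAT line it read -6.60, -6.34 and -6.38 at 0 h, -4.79, -5.04 and -4.29 at 3 h (1 array well above background), and -2.72, -2.50 and -2.19 at 5 h (all 3). At 5 h Nos2 was at least 4.60-fold lower in the Tbc1d23 line. This bound sets the mean of the brighter group against, on each array of the dimmer group, the higher of the probe's own level and the lowest level of any probe well above background. The measured means were -5.29 ± 0.34 in the Tbc1d23 line and -2.47 ± 0.26 in the CAT line (SD, n = 3 each). A call for higher Nos2 at 0 h in the Tbc1d23 line rested on signals that were below background in both lines, and in the run that holds both lines the difference was 0.28 and did not pass.

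Ass1 supplies arginine from citrulline. The probe that stands for it was not well above background on any of the 12 arrays of the Tbc1d23 line and was on all 12 of the CAT line. The Tbc1d23 arrays read -4.71, -4.66 and -4.13 at 5 h and -4.71, -5.02 and -4.93 at 0 h, without separation. In the CAT line Ass1 stayed at -3.53, -3.35 and -3.14 at 0 h and -3.37, -3.24 and -2.86 at 1 h, then reached -0.69, -0.42 and -0.12 at 3 h and 1.67, 1.40 and 1.61 at 5 h. It was therefore a late gene there, with no call at 1 h and a further step of 1.97 ± 0.30 at 5 h over 3 h (limma adjusted p = 9.10e-05). The Tbc1d23 line was at least 1.79-fold lower at 0 h. At 5 h its arrays read just above the lowest level of any probe well above background. The 66.5-fold lower level at 5 h is therefore that of the measured means and not a bound. With normexp correction the 0 h difference was -0.37 and the call was lost, and the 5 h difference was -3.14. The measured 5 h means were -4.50 ± 0.32 in the Tbc1d23 line and 1.56 ± 0.14 in the CAT line (SD, n = 3 each).

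Gch1, which makes the Nos2 cofactor tetrahydrobiopterin, crossed over between the lines. At 0 h it read 1.61, 1.61 and 1.35 in the Tbc1d23 line and 0.17, 0.22 and 0.29 in the CAT line. At 3 h it read 2.12, 2.17 and 2.01 in the Tbc1d23 line and 3.43, 3.50 and 3.39 in the CAT line. At 5 h it read 2.07, 2.24 and 1.95 in the Tbc1d23 line and 4.41, 4.41 and 4.48 in the CAT line. The groups did not overlap at any of the 4 times, and the Tbc1d23 line was the higher of the 2 at 0 and 1 h and the lower at 3 and 5 h. The difference was 1.30 ± 0.09 at 0 h (SE, limma adjusted p = 2.67e-09) and -2.34 ± 0.09 at 5 h (limma adjusted p = 3.08e-13), a 5.08-fold lower level. Gch1 rose in the Tbc1d23 line at 5 h by 0.56 ± 0.09 over 0 h, a call that median scaling lost, and in the CAT line by 4.20 ± 0.09. The dimmer Gch1 probe gave no difference at 0 h (-0.17 ± 0.14), so the higher resting level rests on 1 of 2 probes, and under median scaling that call was lost at the brighter probe too.

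Arg2, the mitochondrial arginase, was already induced at 1 h in the CAT line. At 1 h it read -2.99, -3.05 and -3.64 in the Tbc1d23 line and -1.85, -1.77 and -1.86 in the CAT line, where it had read -5.50, -4.86 and -6.36 at 0 h with none well above background. At 5 h Arg2 read -2.02, -2.31 and -3.02 in the Tbc1d23 line and -0.81, -0.64 and -0.75 in the CAT line, without overlap. The Tbc1d23 line was at least 1.58-fold higher at 0 h (limma adjusted p = 0.000557), where its arrays read -3.33, -4.45 and -4.02 and 2 of 3 were well above background. From 1 h on it was lower, with line differences of -1.40 ± 0.33 at 1 h and -1.71 ± 0.33 at 5 h (SE, limma adjusted p = 0.000268 at 5 h), which is 3.28-fold. The resting difference was 0.12 and did not pass when the background was corrected by normexp. Levels of 3 and 5 h overlapped each other within each line.

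Arg1, the cytosolic arginase often used as a mark of alternatively activated macrophages, was well above background on 1 of 24 arrays, replicate 1 of the Tbc1d23 line at 0 h. Its level there was -3.78, and the other arrays of that group read -5.37 and -4.96. All other groups had means between -6.85 and -5.92, and Arg1 was therefore not tested beside the others. Fitted without the filter, its line difference of 1.89 ± 0.33 at 0 h and its 5 h response of -2.0 ± 0.33 in the Tbc1d23 line were called, both from signals at or near background.

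Hdc, the histamine enzyme, had the largest measured line difference of the 7 at 3 and 5 h and no call at 0 h. At 0 h it read -4.37, -4.01 and -4.17 in the Tbc1d23 line and -3.94, -4.13 and -3.69 in the CAT line, and the groups overlapped. At 3 h it read -1.70, -1.48 and -2.28 in the Tbc1d23 line and 4.51, 4.50 and 4.26 in the CAT line. At 5 h it read -1.08, -0.94 and -1.52 in the Tbc1d23 line and 6.15, 6.25 and 6.20 in the CAT line. The 5 h level was 166-fold lower in the Tbc1d23 line, a difference of -7.38 ± 0.20 (SE, limma adjusted p = 1.61e-15). At 5 h the Tbc1d23 line had gained 3.01 ± 0.20 over 0 h, against 10.12 ± 0.20 in the CAT line. At 0 h 1 of 3 arrays was well above background in the Tbc1d23 line and 2 of 3 in the CAT line, and with normexp correction the gains were 1.15 and 7.68. Hdc had the widest range of the members over the 8 groups, and its order of levels ran from the CAT line at 5 h and 3 h down to the Tbc1d23 line at 5 h with a gap between.

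Histamine is also made by mast cells and basophils, so their markers were read beside Hdc. Of 10 listed markers, 3 passed the filter (Fcer1a, Cma1 and Gata2), and the receptor gene Kit, the mast cell protease genes Cpa3, Tpsb2, Tpsab1 and Mcpt4, the basophil protease gene Mcpt8 and Ms4a2 did not. The summed signal of the 3, relative to the array's 75th percentile, was 0.336 to 0.591 in the Tbc1d23 line at 5 h and 0.164 to 0.238 in the CAT line at 5 h. Of the 3, 1 was called higher and 0 lower in the Tbc1d23 line at 5 h (30% and 23.5% of all genes). The 5 h means in the Tbc1d23 and CAT lines were -2.34 and -6.10 for Gata2, -2.86 and -3.03 for Fcer1a, and -3.01 and -4.33 for Cma1. Of 8 T and B lymphocyte markers 5 passed, with a sum of 2.96 to 4.37 in the Tbc1d23 line and 0.771 to 2.17 in the CAT line over all times. The single markers did not share this direction at 5 h, when 1 of the 5 was called higher and 3 lower in the Tbc1d23 line (median -0.57). At 0 h 3 were higher and 0 lower (median 1.42, 25.1% and 20.2% of all genes). The brightest of the 5 in the Tbc1d23 line at 5 h was Cd5, with a mean of 1.64, so the sum mostly follows that gene there. Of 7 fibroblast and epithelial markers 3 passed (Col1a2, Pdgfrb and Lum), with sums of 0.168 to 0.200 in the Tbc1d23 line and 1.04 to 1.20 in the CAT line at 5 h. Of 7 granulocyte markers 2 passed (S100a8 and Mpo), with sums of 0.238 to 0.316 in the Tbc1d23 line and 0.131 to 0.200 in the CAT line at 5 h. The part of these markers in the enzyme differences was not tested. In these bulk samples fewer expressing cells and less RNA per cell cannot be told apart.

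Odc1, the first enzyme of polyamine synthesis, was the member with no lower call at any time: the Tbc1d23 line started above the CAT line and changed little at the probe that stood for the gene. It read 9.30, 9.54 and 9.68 at 0 h in the Tbc1d23 line and 7.29, 7.59 and 7.49 in the CAT line. At 1 h it read 9.18, 9.53 and 9.81 in the Tbc1d23 line and 8.51, 8.35 and 7.95 in the CAT line, still apart. At 5 h it read 9.61, 10.01 and 10.20 in the Tbc1d23 line and 9.70, 9.65 and 9.55 in the CAT line, which overlap. The line difference was 2.05 ± 0.21 at 0 h (SE, limma adjusted p = 2.45e-07), a 4.14-fold higher level, and 1.23 ± 0.21 at 1 h (limma adjusted p = 9.64e-05). At 3 and 5 h it was 0.23 ± 0.21 and 0.31 ± 0.21, with limma adjusted p = 0.374 and 0.231, and both passed when the fit held the slide run as a term, at 0.52 and 0.59. Odc1 in the CAT line at 3 h and 5 h overlapped the resting Tbc1d23 level. Odc1 has processed copies in the mouse genome, and how far they share its probes was not analysed here.

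**Figure D2:**
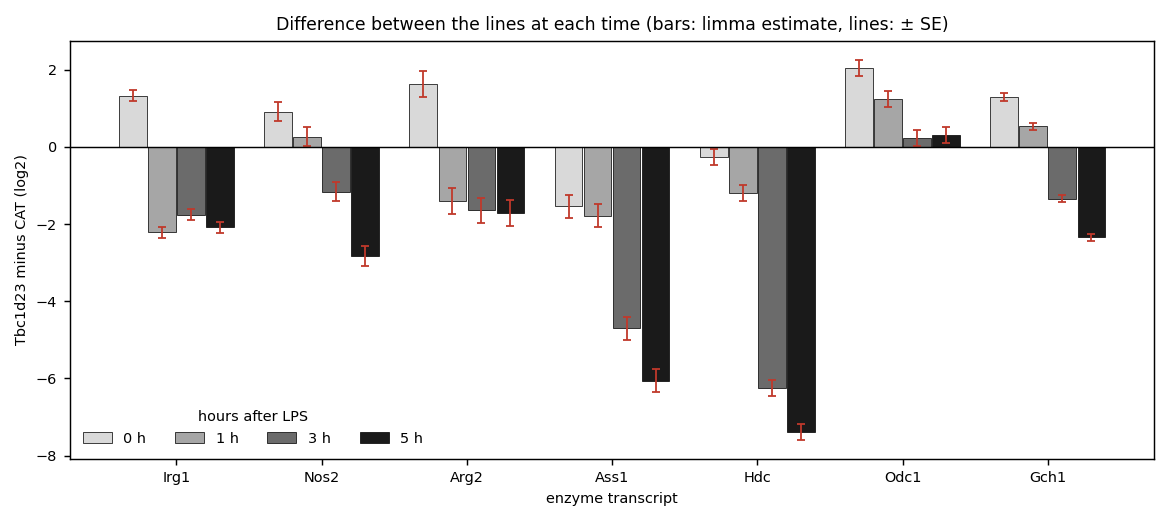
Tbc1d23 minus CAT on the log2 scale for the 7 tested enzymes at 0, 1, 3 and 5 h after LPS, with limma estimates as bars and standard errors in red. Bars for 5 enzymes point up at 0 h and the bars at 5 h point down for 6, from -7.38 for Hdc to 0.31 for Odc1.

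The run that holds both lines has 1 array of the Tbc1d23 line and 3 of the CAT line at each time, so the spread of the lone arrays there is taken from the others. Within it the 5 h differences were -2.19 for Irg1, -2.91 for Nos2, -2.29 for Arg2, -5.69 for Ass1, -7.72 for Hdc, 0.57 for Odc1 and -2.48 for Gch1. With the run as a block they were -2.04, -3.13, -2.08, -5.65, -7.67, 0.59 and -2.47 in the same order of genes. The lower calls of Irg1, Arg2, Hdc and Gch1 at 5 h also passed in both of these fits and without any 1 of the 24 arrays, with Hdc between -7.50 and -7.21. The size for the dim genes depended on the background setting. With normexp correction and its constant of 50, the 5 h difference was -0.75 for Nos2, -1.04 for Arg2 and -3.14 for Ass1. How much of the smaller size came from the constant was not tested.

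By 5 h of LPS, 4 of the 7 tested enzymes had risen in the Tbc1d23 line and all 7 in the CAT line. In the Tbc1d23 line 1 member, Irg1, was higher at 1 h than at 0 h (0.835% of all genes were called higher), and Irg1, Hdc, Arg2 and Gch1 were higher at 3 h (3.48%) and at 5 h (3.03%). In the CAT line 5 members were higher at 1 h (3.66% of all genes), 7 at 3 h (16.1%) and 7 at 5 h (18.4%). Arg2 and Hdc passed the filter through LPS groups alone, and Nos2 through the CAT line at 5 h. Their rises over 0 h in these counts are therefore a description. Of the members that passed in a 0 h group, Irg1 and Gch1 were higher at 5 h in the Tbc1d23 line. In the CAT line Irg1, Gch1, Odc1 and Ass1 were. The 5 h responses in the Tbc1d23 line were 5.00 ± 0.14 for Irg1, 3.01 ± 0.20 for Hdc, 1.49 ± 0.33 for Arg2 and 0.56 ± 0.09 for Gch1 (SE). Odc1, Ass1 and Nos2 had 0.43 ± 0.21, 0.39 ± 0.30 and 0.23 ± 0.25, which did not pass. In the CAT line the 5 h responses were 10.12 for Hdc, 8.41 for Irg1, 4.90 for Ass1, 4.20 for Gch1 and 2.18 for Odc1. For Arg2 and Nos2, below background at 0 h in the CAT line, the 5 h rises there were at least 14.6-fold and at least 4.37-fold, both as a description. With normexp correction and its constant of 50, the 5 h rises in the CAT line were 0.83 for Nos2, 1.66 for Arg2, 2.91 for Ass1 and 7.68 for Hdc (log2). For Nos2 and Arg2 they lay under these bounds, which hold no such constant. In the Tbc1d23 line the normexp rises were 0.51 for Arg2 and 1.15 for Hdc.

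The timing differed among the enzymes in the CAT line. Irg1 had gained 6.32 ± 0.14 of its 8.41 by 1 h, and Arg2, below background at 0 h, was at least 6.82-fold higher at 1 h. Hdc gained 1.60 ± 0.20 by 1 h and a further 6.74 ± 0.20 between 1 and 3 h. In the Tbc1d23 line, Irg1, Hdc and Gch1 were higher at 3 h than at 1 h (3.14% of all genes), and at 5 h over 3 h limma called 0 of 7 (0.238%), with 2 at an unadjusted p under 0.05. At 3 h over 1 h, all 7 were higher in the CAT line (15.8% of all genes), and at 5 h over 3 h Nos2, Ass1, Hdc and Gch1 were (6.65%). The Nos2 step at 5 h is a description, since Nos2 passed the filter through that group. Under median scaling the Gch1 step at 5 h over 3 h in the CAT line, 0.99, did not pass. In the Tbc1d23 line the Gch1 step at 3 h over 1 h, 0.36 ± 0.09, was lost under quantile and median scaling, normexp, the deposited values and no filter. It was also lost without any 1 of 4 arrays, replicate 1 or 3 at 1 h or replicate 1 or 2 at 3 h (0.30 to 0.36). The Arg2 step at 3 h over 1 h in the CAT line, 1.02 ± 0.33, was lost under median scaling (0.85) and no filter, and without any 1 of 5 arrays, the 3 at 1 h and replicates 2 and 3 at 3 h, where it was 0.96 to 1.04. The Arg2 rises in the Tbc1d23 line were lost without replicate 2 at 0 h (1.22 at 3 h and 1.23 at 5 h), that at 3 h also without replicate 2 at 3 h (1.30) and that at 5 h without replicate 1 at 5 h (1.27). The 1 h rise of Odc1 in the CAT line, 0.81 ± 0.21, was lost without replicate 1 at 0 h (0.73) or without replicate 1 or 2 at 1 h (0.69 and 0.77).

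**Figure D3:**
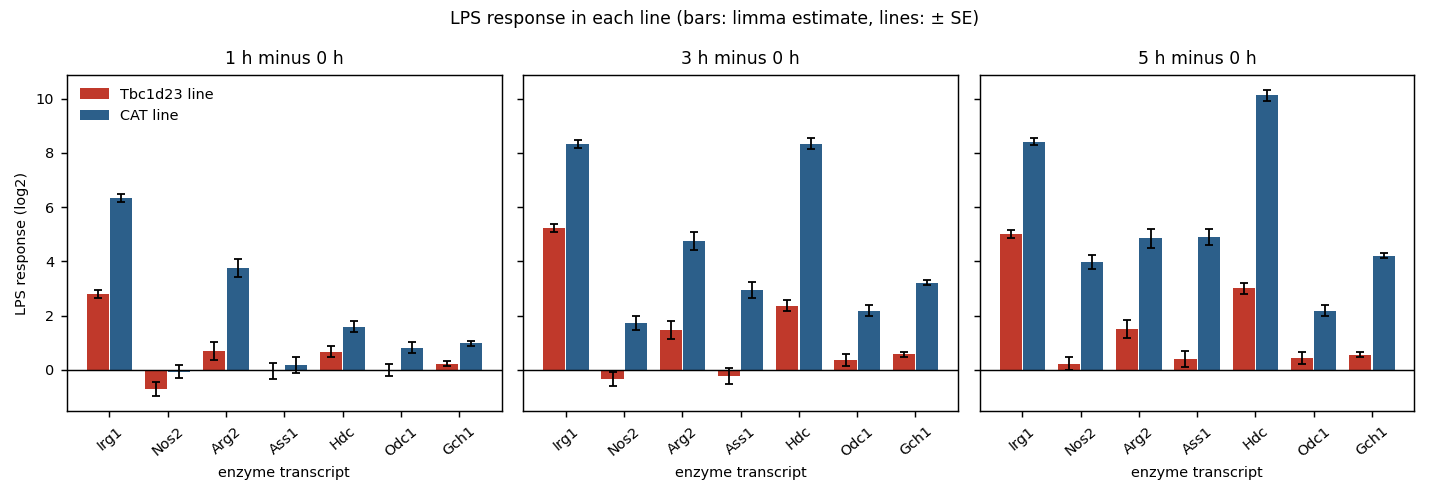
LPS response (log2, later time minus 0 h) of the 7 tested enzymes at 1, 3 and 5 h in the Tbc1d23 line (red, left) and the CAT line (blue, right), with limma estimates as bars and standard errors as lines. At 5 h every CAT bar is taller than the Tbc1d23 bar beside it, with Hdc at 3.01 in the Tbc1d23 line and 10.12 in the CAT line.

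The difference between the 2 responses was tested directly. At 1 h it was lower in the Tbc1d23 line for 3 members, Irg1 (-3.54 ± 0.20), Arg2 (-3.04 ± 0.47) and Gch1 (-0.76 ± 0.13), and 1.78% of all genes were called lower. All 7 were lower at 3 h (8.39% of all genes) and at 5 h (10.6%), as a description for Nos2 and Ass1, and so were the 5 others taken alone. The members' median difference of responses was -3.09 at 3 h and -3.64 at 5 h, against -0.02 and -0.01 over all genes. Without Nos2 and Ass1 this median was -3.09 at 3 h and -3.41 at 5 h. At 5 h the values ran from -7.11 ± 0.29 for Hdc to -1.74 ± 0.30 for Odc1. At the probe that stood for Odc1 the CAT line rose to the level that the Tbc1d23 line already had. For Irg1, Arg2 and Gch1 the resting level was also higher in the Tbc1d23 line, so at these probes part of each difference of responses lies at 0 h. The resting calls of Irg1 and Gch1 were lost under median scaling and that of Arg2 under normexp. At the dimmer Odc1 probe the CAT line reached 3.90 at 5 h, above the resting 2.87 of the Tbc1d23 line, which itself reached 4.80. The dimmer Gch1 probe read -2.08 at 0 h in the Tbc1d23 line and -1.91 in the CAT line. For Hdc the resting levels did not pass the test. Under median scaling the differences of responses kept their sign but did not pass for Odc1 at 3 or 5 h, Gch1 at 1 h (-0.34) and Nos2 at 3 h (-1.49). Gch1 at 1 h also did not pass in the run that holds both lines (-0.69), nor Nos2 at 3 h with the deposited values (-1.17). With normexp correction the Nos2 difference was -0.30 at 3 h, which did not pass. At 5 h the differences were -0.72 for Nos2 and -2.77 for Ass1, as a description, and -1.15 for Arg2, which passed.

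Samples of 1 line with the same replicate number shared a slide and deviated together, so the time comparisons were repeated with the replicate number as a block within each line. With this replicate block Hdc (0.67) and Gch1 (0.22) were called beside Irg1 at 1 h in the Tbc1d23 line. For the 5 h over 3 h step in that line the block added Hdc, at 0.64. Odc1 was called at 5 h in the Tbc1d23 line at 0.43 with the block. For the difference of responses at 1 h the block added Hdc (-0.93) and Odc1 (-0.82). The share of all genes called under the block is not given here, so these added calls were not set against it.

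Irg1, Ass1, Odc1 and Gch1 had a second probe that passed the filter. The second Irg1 probe, which shares 40 bases with the first, gave line differences of 1.85 ± 0.26 at 0 h and -1.52 ± 0.26 at 5 h, with the same calls at all 4 times. The second Ass1 probe, well above background on 2 Tbc1d23 arrays at 0 h, 1 at 1 h and 1 at 5 h, gave -5.80 ± 0.44 at 5 h and no call at 0 h (-0.87 ± 0.44). At the second Odc1 probe the Tbc1d23 line was called higher at all 4 times, by 1.84 ± 0.16 at 0 h and 0.90 ± 0.16 at 5 h, and it rose in the Tbc1d23 line by 1.93 ± 0.16 at 5 h. The flat course of the first Odc1 probe in that line was therefore not seen at the second, and the 5 h difference of responses there was -0.94 ± 0.22. The second Gch1 probe was lower in the Tbc1d23 line from 1 h on, with -0.86 ± 0.14 at 1 h, where the first probe was higher, and -3.71 ± 0.14 at 5 h.

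**Figure D4:**
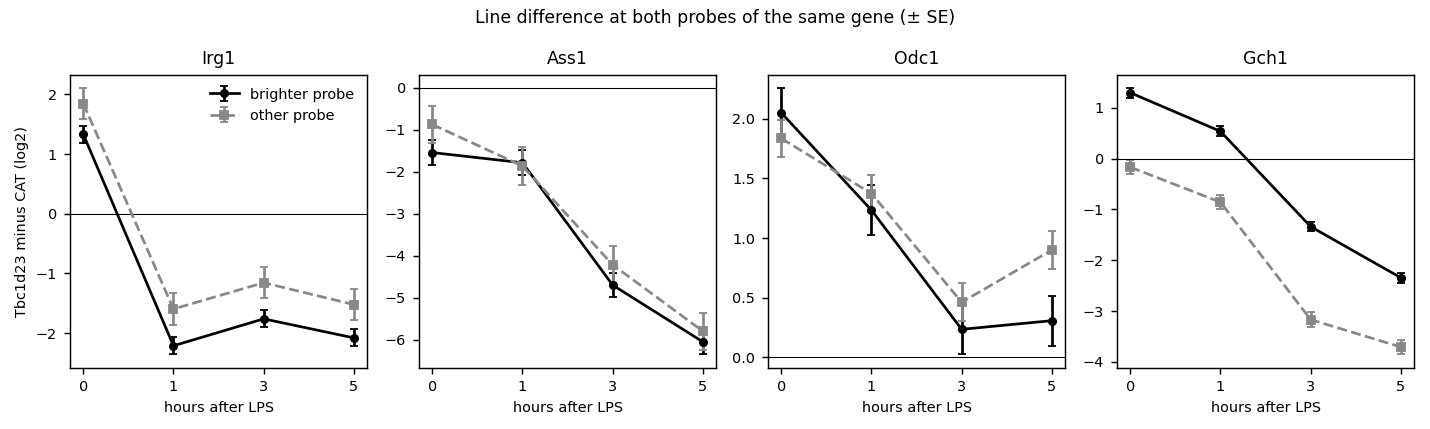
Tbc1d23 minus CAT (log2, ± SE) at 0, 1, 3 and 5 h for both probes of Irg1, Ass1, Odc1 and Gch1, the brighter probe in black and the other in grey. The probes run in parallel for Irg1 and Ass1, and the grey Gch1 probe lies below the black one at every time, at -0.17 against 1.30 at 0 h.

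Genes next to these enzymes in their pathways did not share one direction. Of 17 tested arginine and nitric oxide neighbours, 3 were higher and 7 lower in the Tbc1d23 line at 5 h, with a median of -0.12 against 0.10 over all genes, of which 30% were higher and 23.5% lower. The arginine transporter Slc7a2 had a 5 h line difference of -2.77 ± 0.56, with 1 of 3 arrays well above background in the Tbc1d23 line and 3 of 3 in the CAT line, and in the CAT line it was at least 4.35-fold higher at 5 h than at 0 h, where it was below background. Slc7a7, another cationic amino acid carrier, was 6.08-fold lower at 5 h in the Tbc1d23 line, at 2.63 against 5.23 in the CAT line, and at 0 h it read 1.55 against 2.71. Pycr1, a proline synthesis enzyme, was well above background on 13 of 24 arrays. Its 5 h mean was -5.55 in the Tbc1d23 line and -3.41 in the CAT line, a difference of -2.14 given as a description. At 0 h these means were -5.16 and -3.47. Nos3, the endothelial synthase, fell below background in the CAT line by 5 h, at least 2.05-fold lower than at 0 h. In the tetrahydrobiopterin list 1 of 7 was higher and 3 were lower in the Tbc1d23 line at 5 h, with a median of -0.27. Pts, the enzyme after Gch1, had a line difference of -1.65 ± 0.12 and the recycling enzyme Pcbd1 one of -1.80 ± 0.41. At 0 h Pts already read 1.53 in the Tbc1d23 line and 3.29 in the CAT line, and Pcbd1 -3.38 and -2.79.

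Of 16 polyamine genes 7 were higher and 6 lower in the Tbc1d23 line at 5 h, against the same 30% and 23.5% of all genes. The acetyltransferase genes Sat1 and Sat2, of which the first marks polyamines for export and breakdown, were higher by 1.35 ± 0.12 and 1.05 ± 0.11. They were so before LPS: at 0 h Sat1 read 4.36 in the Tbc1d23 line and 2.70 in the CAT line, and Sat2 0.66 and -0.37. The antizyme gene Oaz3 was higher by 2.27, as a description, since it was well above background on only 6 of 24 arrays. At 5 h Oaz3 read -2.90 in the Tbc1d23 line and -5.17 in the CAT line. Spermine oxidase, Smox, rose by 2.41 ± 0.09 at 5 h in the CAT line, Dhps, which uses spermidine to modify a translation factor, rose by 1.22 ± 0.12, and the oxidase Paox fell by 1.66 ± 0.19. In the tricarboxylic acid cycle list 2 of 24 were higher and 12 lower at 5 h in the Tbc1d23 line, and 1 higher and 14 lower at 0 h, with medians of -0.32 and -0.57 against 0.10 and 0.09 over all genes. Of all genes 30% were higher and 23.5% lower at 5 h, and 25.1% and 20.2% at 0 h. Clybl, which takes part in clearing a product of itaconate breakdown, had a line difference of -2.46 ± 0.22 at 5 h and Idh2, mitochondrial isocitrate dehydrogenase, one of -1.86 ± 0.12. Both gaps were there before LPS: at 0 h Clybl read -2.18 in the Tbc1d23 line and 0.36 in the CAT line, and Idh2 0.36 and 2.47. The dicarboxylate carrier Slc25a10 was higher by 0.92 ± 0.14 at 5 h, with 0 h means of 2.84 in the Tbc1d23 line and 2.78 in the CAT line. In the CAT line at 5 h over 0 h, Slc25a10 fell by 1.30 ± 0.14, Idh1 by 1.28 ± 0.13 and Aco1, the cytosolic aconitase, by 0.91 ± 0.14.

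Of 9 histamine handling genes 2 passed the filter, and the receptor gene Hrh1 was called higher in the Tbc1d23 line at 5 h by 1.75 ± 0.61, with 2 of 3 arrays well above background there and 0 of 3 in the CAT line. Of 7 tested alternative activation genes 5 were lower in the Tbc1d23 line at 5 h (23.5% of all genes) and 0 higher (30%), and 5 rose in the CAT line at 5 h (18.4%). These counts include genes that are given below as a description. The chemokine genes Ccl17, Ccl22 and Ccl24 were the 3 largest in both comparisons. At 5 h Ccl17 was 13.5-fold lower in the Tbc1d23 line, Ccl22 at least 9.48-fold lower and Ccl24 at least 34.8-fold lower, and in the CAT line at 5 h Ccl17 rose 48.3-fold, Ccl22 at least 9.02-fold and Ccl24 14.8-fold over 0 h. The other called genes of the list in both comparisons were Il4ra, a subunit of the interleukin-4 receptor, at -1.05 in the Tbc1d23 line and 1.79 in the CAT line at 5 h, and the mannose receptor gene Mrc1, at least 2.04-fold lower in the Tbc1d23 line. These last 2 were named after their values were seen. Ccl22, Ccl24 and Mrc1 were well above background on 6, 12 and 5 of 24 arrays. Their means were highest in the CAT line at 3 and 5 h, so their calls in both comparisons are a description.

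The course over the 8 groups varied among the members. Pearson's r between group means was 0.969 for Irg1 and Arg2, 0.928 for Hdc and Gch1, 0.911 for Ass1 and Hdc and 0.911 for Nos2 and Gch1, and it was 0.0115 for Ass1 and Odc1. These correlations describe 8 group means that share arrays and scaling. Among 2431 genes whose group means span at least 2 log2 units, those most like Irg1 were Nfkbib, Clec4e and Plaur (r = 0.989, 0.989 and 0.980), and those most like Arg2 were Marcksl1, Plaur and Nfkbib (0.988, 0.984 and 0.982). Ass1 was closest to Myd88, Ifi202b and Batf2 (0.996, 0.995 and 0.995) and Hdc to Cd47, Dnmt3l and Src (0.994, 0.992 and 0.990). Gch1 was closest to Sod2, Amn1 and Lilrb4 (0.991, 0.986 and 0.985), Nos2 to Prss22, Sspn and Tmem202 (0.987, 0.981 and 0.975) and Odc1 to Rhoc, Ccl3 and Rab8b (0.986, 0.983 and 0.983).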

How the data were processed

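RNA from 24 samples was hybridised to one-colour Agilent arrays. The authors' scanner files name Agilent Feature Extraction, version 10.7.1.1, in their headers and gave for each spot a processed signal intensity, background-subtracted per the file headers. The authors also deposited a table of log2 values, identical in distribution on all arrays, whose tools the submitters' processing notes list as RMA and Partek. Its order of probes matched the scanner intensities (Spearman 0.9997 to 1.0000), and it was used as an alternative. Here, log2 intensities of the spots of a probe were averaged without outlier spots and scaled to each array's 75th percentile. The brightest probe stood for a gene, where it was well above background on all 3 arrays of a group. Group means were fitted with limma 3.58.1 (R 4.3.3), with Benjamini-Hochberg adjustment over all gene names. The fit was tested on simulated data. Within a line, same-numbered samples shared a slide and their deviations correlated (0.52 to 0.83 in the Tbc1d23 line, 0.19 to 0.69 in the CAT line, 18 pairs each). Across lines they did not (-0.41 to -0.07). The number of arrays limits the precision. The members and gene lists were chosen with earlier results of these data known. Genes named were the members, in each list up to 3 called genes with the largest line difference at 5 h and up to 3 with the largest CAT response at 5 h, and the 3 genes most like each member. Of these, 1 gene is not reported here. Alternatives covered scaling, background, filter, probe choice, slide, run, replicate and each array left out.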

Additional observations from a re-analysis of the deposited data

Results flagged for a closer look

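The LPS response of the enzymes differed between the lines in the direct test of that difference (Tbc1d23 minus CAT, log2, limma). Irg1 differed by -3.54 at 1 h, -3.09 at 3 h and -3.41 at 5 h, Arg2 by -3.04, -3.28 and -3.35, and Gch1 by -0.76, -2.63 and -3.64. Hdc differed by -5.97 at 3 h and -7.11 at 5 h, Ass1 by -3.16 and -4.51, Nos2 by -2.07 and -3.74, and Odc1 by -1.82 and -1.74. All 17 were negative, with 3 arrays per group. The test was not passed by Nos2 at 3 h under median scaling, normexp correction or the deposited values, by Gch1 at 1 h under median scaling or in the run that holds both lines, or by Odc1 at either time under median scaling. Normexp brought the 5 h values of Nos2 and Arg2 to -0.72 and -1.15. Nos2 and Ass1 were measured well above background in CAT groups alone at the probe that stands for them, so their values and calls here are a description.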

How the results depend on the processing

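Over 126 single results (7 enzymes in 18 comparisons), 1243 of 1314 values under the other settings kept their direction and side of the threshold, 34 lost the call, 35 gained one and 2 reversed. The reversals were Nos2 at 0 h under normexp (-0.029) and Gch1 at 1 h with the mean of its probes (-0.16). Leaving out 1 array changed 17 of 3024 values, 16 of them lost calls. Requiring all 24 arrays above background left Irg1, Odc1 and Gch1, so the counts called became 3 for the CAT line at 1, 3 and 5 h over 0 h and at 3 h over 1 h, 1 at 5 h over 3 h, 2 for the Tbc1d23 line at 3 and 5 h over 0 h, 3, 3, 2 and 2 for the lines at 0, 1, 3 and 5 h, 3 averaged over times, and 3 for the responses at 3 and 5 h. At 0 h the lines differed in 3 members under median scaling (2 higher, 1 lower) and in 3 under normexp. For the Tbc1d23 line at 1 h over 0 h the count was 2 under quantile normalization, deposited values, no filter and the run as a block, 4 with slide as a random block and 3 with the replicate block, against 1, and 1 to 2 with 1 array left out (2 without replicate 3 at 0 h). At 5 h over 0 h it was 2 in the run that holds both lines, and at 5 h over 3 h it was 1 with the run, slide or replicate block. The random slide and the replicate block gave 5 for the responses at 1 h. The replicate block changed no call beyond those it added here and that of Odc1 at 5 h over 0 h in the Tbc1d23 line. Replicate numbers do not pair the lines, and a block on them across lines gave the same counts of line differences. The Tbc1d23 transcript was called higher with the mean of its probes (0.27), the run as a block (0.40) and the run that holds both lines (0.40), and lay between -0.01 and 0.07 with 1 array left out. The cause of these changes was not tested, apart from the fewer genes of the stricter filter. The counts under these settings stand without the share of all genes called under each, and were not set against it. The normexp fit failed on 6 arrays, where the median parameters of the others were used, chosen after seeing the data. Dim probes limit Nos2, Arg1, Arg2 and Ass1.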
